A study of Mus musculus with 18 samples.

Results

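The genes described here are those of the mouse MHC class II pathway: Ciita, the invariant chain gene Cd74, the classical class II chain genes H2-Aa, H2-Ab1 and H2-Eb1, the peptide editor genes H2-DMa, H2-DMb1 and H2-DMb2, and the H2-DO genes H2-Oa and H2-Ob. They were chosen by symbol from a list of 10, and all 10 were found among the 15219 genes that the count tables of all 3 cell types shared, out of 17903 genes listed in at least 1 table. RNA was sequenced from conventional dendritic cells of type 1 (cDC1) and type 2 (cDC2) and from plasmacytoid dendritic cells (pDC), all sorted from mouse spleen. The labels give 18 samples in all, with 3 samples of each cell type from HDAC1 floxed mice and 3 from HDAC1 Mx1-Cre mice, and the tables hold 6 columns per cell type.

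Both genotypes carried the floxed Hdac1 allele, and both received polyI:C, which induces the interferon-responsive Mx1 promoter that drives Cre, with sorting 2 weeks later. Mx1-Cre is active in many cell types, so recombination was not restricted to dendritic cells. The columns of the count tables carry codes that match no sample label, so the genotype of a column is not known from the labels and genotypes were not compared. The spread among the 6 columns of a cell type therefore includes any genotype difference. The labels do not say whether the samples came from separate mice or whether cell types came from the same mice, so p-values measure only the spread between these samples. They give no batch. All 3 gates excluded lineage-marked and CD64+ cells. The cDC1 gate took CD11c+ MHCII+ cells with XCR1 and without CD11b, the cDC2 gate took CD11c+ MHCII+ cells with CD11b and without XCR1, and the pDC gate took CD11c-intermediate, CD11b- cells with BST2. Since surface class II protein was part of both conventional gates and not of the pDC gate, H2-Aa, H2-Ab1 and H2-Eb1 are described against pDC without a test.

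Class II molecules are pairs of an alpha and a beta chain that display peptides from endocytosed proteins to CD4+ T cells. They assemble in the endoplasmic reticulum with the invariant chain, which is cut down in endosomes to a fragment in the groove. H2-DM exchanges this fragment for antigenic peptides, and H2-DO binds H2-DM and inhibits it. Transcription of these genes depends on CIITA, a coactivator that does not bind DNA itself. It docks on RFX, CREB and NF-Y proteins bound to the X and Y boxes upstream of class II genes. Conventional dendritic cells and pDC are known to transcribe Ciita from different promoters.

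The promoter sequences are shown because the members share these boxes. In GENCODE M21 on GRCm38, the 8 H2 genes lie on chromosome 17 between 34092340 and 34316674. For 7 of the 10 members (H2-Aa, H2-Eb1, H2-DMa, H2-DMb1, H2-DMb2, H2-Oa and H2-Ob) the RefSeq promoter table for GRCm38.p6 held a window of 300 bases, from 250 before to 50 after the gene's RefSeq start. RefSeq and GENCODE starts can differ. The GENCODE starts of H2-DMb1 (34153072) and H2-DMb2 (34143307) lie before the stretches printed below, which are thus inside the GENCODE genes. The Y box core ATTGG, searched on both strands, was in all 7 windows and in 37.4% of 32851 windows of all genes. A form of the X box, the letters AAC followed by any 2 bases and ATGATG (both strands), was in the windows of H2-DMb1, H2-DMb2, H2-Eb1 and H2-Ob, 4 of the 7, and in 0.137% of all windows. These letters were chosen after the windows had been seen, and share no base with the Y box core in the windows shown. An X box followed on the same strand by a Y box core, with 20 to 45 bases from start to start, was found in 4 windows of 32851, and these were the windows of the same 4 genes. Because this count uses X box letters chosen with these windows in view, it is a description and not a test of how specific the pattern is. The distance was 30 bases in H2-Eb1, 28 in H2-Ob and 31 in both H2-DMb genes. The cAMP response element TGACGTCA (both strands) was in the window of 1 member, H2-Aa, and in 1.79% of all windows.

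The stretches below are on the plus strand for all but H2-Aa, which is on the minus strand, and are written 5′ to 3′ in the direction of the gene. Capitals mark the X box, the cAMP response element and the Y box core. They lie at chr17:34305753-34305812 (H2-Eb1), chr17:34238793-34238852 (H2-Ob), chr17:34287867-34287926 (H2-Aa), chr17:34092281-34092340 (H2-Oa), chr17:34153089-34153118 (H2-DMb1) and chr17:34145118-34145147 (H2-DMb2). The last pair are cut to 30 bases around the X box.
H2-Eb1: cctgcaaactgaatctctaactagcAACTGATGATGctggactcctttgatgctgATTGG
H2-Ob: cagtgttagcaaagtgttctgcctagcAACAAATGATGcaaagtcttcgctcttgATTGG
H2-Aa: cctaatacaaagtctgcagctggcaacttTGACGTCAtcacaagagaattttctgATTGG
H2-Oa: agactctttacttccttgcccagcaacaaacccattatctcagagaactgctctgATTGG
H2-DMb1: tttacctagtAACTGATGATGctaggctga
H2-DMb2: tttacctattAACCGATGATGctaggctaa
The stretches of H2-DMb1 and H2-DMb2 differ at 3 of 30 positions. A match of letters describes the sequence and does not show that a protein binds there.

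The raw tables hold whole-number counts per gene, and totals over the shared genes ran from 23498837 to 37048800 counts per column. Levels are given as CPM, the counts of a gene per 1000000 counts of that total. The genes of the gate proteins followed the labelled cell types. Xcr1 had a median of 967 CPM in cDC1 against 8.0 in cDC2 and 1.89 in pDC, Itgam, which encodes CD11b, had 38.2 CPM in cDC2 against 2.50 in cDC1 and 2.20 in pDC, and Bst2 had 1739 CPM in pDC against 46.7 in cDC1 and 35.7 in cDC2. Markers outside the gates did so only in part. Clec4a4 had 308 CPM in cDC2 against 4.92 in cDC1 and 0.06 in pDC, and Siglech had 8619 CPM in pDC against 22.99 in cDC1 and 10.4 in cDC2. The summed cDC2 list was higher in pDC (1765 to 2141 CPM) than in cDC2 (1289 to 1634 CPM). Its members Cd209a, Clec10a, Cd4, Irf4 and Mgl2 had higher medians in pDC than in cDC2, while Sirpa, Itgam, Clec4a4 and Esam did not. Of the cDC1 list, Tlr3 had a higher median in pDC (124 CPM) than in cDC1 (113 CPM). Of other class II-positive cells, the 10 B cell markers summed to between 142 and 204 CPM in cDC1, 147 and 220 in cDC2, and 101 and 182 in pDC, and the B cell factor Pax5 did not exceed 0.66 CPM in any column. The 10 macrophage and monocyte markers summed to 412 to 509 CPM in cDC1, 1038 to 1634 in cDC2 and 7463 to 8438 in pDC, where Ly6c2 alone had a median of 7019 CPM. No listed marker was at 0 in all columns of a cell type. Hdac1 ranged from 4.95 to 74.7 CPM in cDC1, from 5.78 to 79.8 in cDC2 and from 9.53 to 124 in pDC, and these values were not used to assign any column.

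Class II transcripts were among the most abundant RNAs of both conventional subsets. The 10 members together took 11.5% ± 1.0 of the counts in cDC1 (SD, n = 6), 12.5% ± 0.55 in cDC2 and 4.59% ± 0.53 in pDC. The lowest conventional column, at 9.73% in cDC1, lay above the highest pDC column, at 5.25%. In bulk RNA from sorted cells, fewer cells that express a gene and less of its RNA per cell cannot be told apart. Per length of the longest coding transcript, Cd74 ranked 2 in cDC1 and 1 in both cDC2 and pDC among the genes with a length, whereas Ciita ranked 1141, 999 and 3848.

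**Figure D1:**
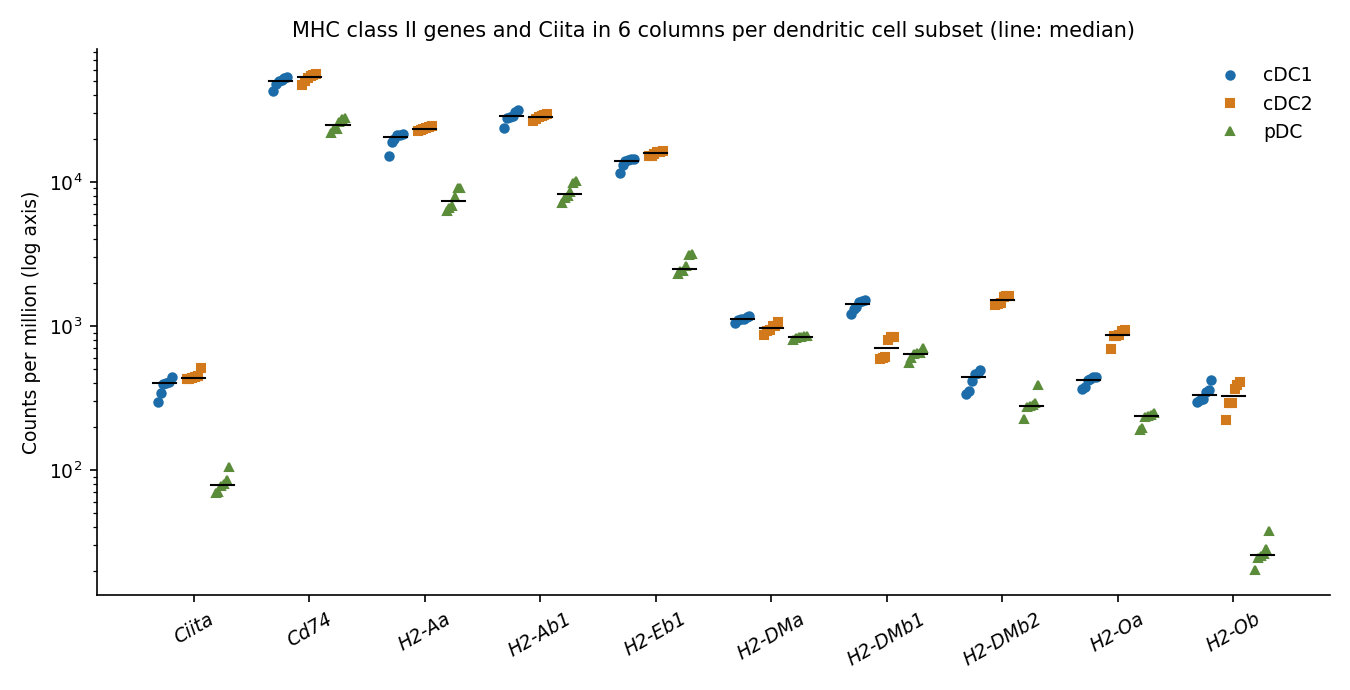
CPM, on a log axis, of the 10 members in the 6 columns of cDC1 (circles), cDC2 (squares) and pDC (triangles), sorted within each cell type, with a line at the median. The pDC points lie below both conventional subsets for Ciita, Cd74, the 3 classical genes, H2-DMa, H2-Oa and H2-Ob. H2-DMb1 stands apart in cDC1, and H2-DMb2 and H2-Oa stand apart in cDC2.

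Differences between cell types were tested with edgeR's quasi-likelihood test across 13539 genes, and a gene was called at a Benjamini-Hochberg adjusted p under 0.05. Between cDC1 and cDC2, H2-DMa and H2-DMb1 were higher in cDC1, H2-DMb2 and H2-Oa were higher in cDC2, and the other 6 members did not pass the test. That is 4 of 10 members, beside 50.5% of all genes tested, so the count of members is not above the background. Among all genes, 24.8% were called higher in cDC1 and 25.7% higher in cDC2. A call with a difference of at least 2-fold was made for 2 members, H2-DMb2 and H2-Oa, and for 17.7% of all genes. The median log2 difference, cDC1 minus cDC2, was -0.13 over the 10 members and 0.0073 over all genes.

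Against pDC, 7 members could be tested, and all 7 were higher in each conventional subset. Selection on class II protein, in the conventional gates only, may also have shifted these 7, and its part was not tested. In cDC1 against pDC the background was 34.3% of all genes called higher in cDC1 and 66.4% called in either direction. In cDC2 against pDC it was 32.2% called higher in cDC2 and 64.1% in either direction. With the further demand of a 2-fold difference, 5 of the 7 were called in cDC1 (Ciita, Cd74, H2-DMb1, H2-Oa and H2-Ob) beside 17.2% of all genes higher in cDC1. Without a composition factor 3 of the 7 were, since Cd74 (0.99) and H2-Oa (0.87) fell under a log2 difference of 1. In cDC2, 5 of the 7 were called (Ciita, Cd74, H2-DMb2, H2-Oa and H2-Ob) beside 17.4% of all genes higher in cDC2. The median log2 difference of the 7 was 1.21 in cDC1 minus pDC and 2.14 in cDC2 minus pDC, while over all genes it was 0.045 and 0.0072. The 2 comparisons share the pDC columns and are not independent. Of the calls over all genes, 51.7% were higher in cDC1 than in pDC and 50.1% higher in cDC2 than in pDC, and without a composition factor these shares were 38.6% and 37.3%.

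**Figure D2:**
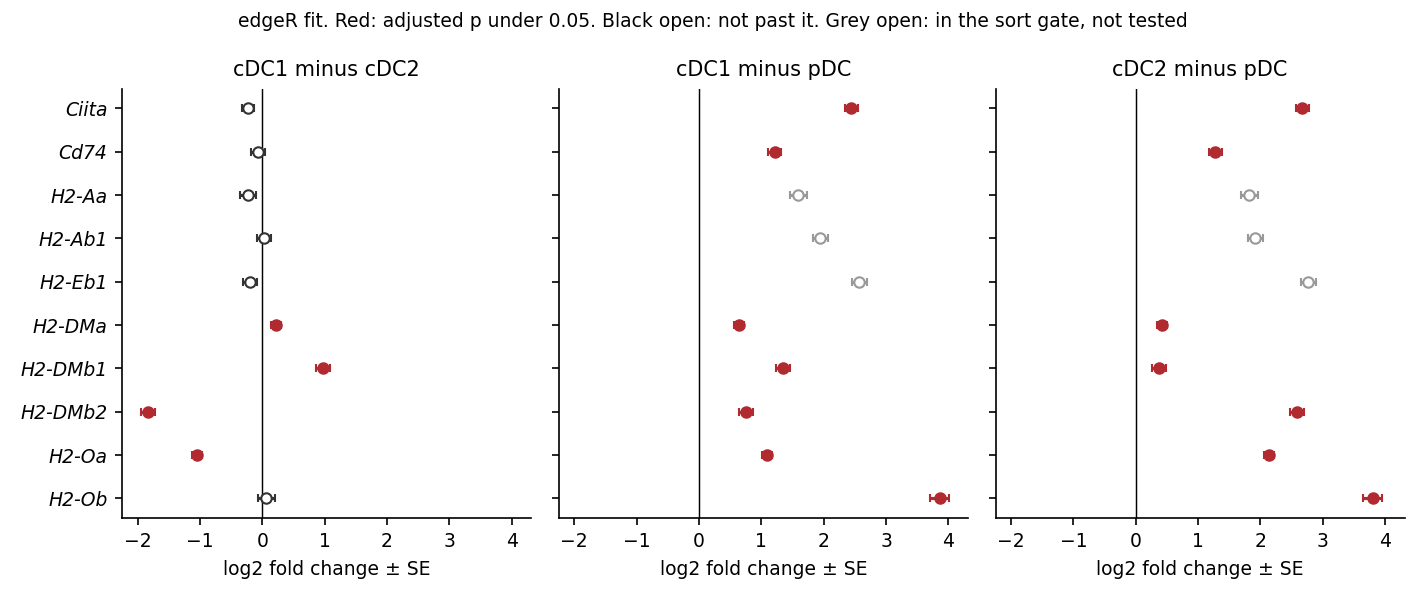
Log2 fold change with its standard error for each member between cDC1 and cDC2, cDC1 and pDC, and cDC2 and pDC, from the edgeR fit over 18 columns. Filled points passed an adjusted p of 0.05, black open points did not, and grey open points are the 3 genes of the protein used in the sort gate, which were not tested. H2-DMb2 and H2-Oa lie left of 0 and H2-DMa and H2-DMb1 right of it between the conventional subsets, and H2-Ob lies farthest right of the tested members against pDC.

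Ciita lies on chromosome 16 from 10480059 to 10528418 on the plus strand (GRCm38) and encodes the coactivator on which the other members depend. It had 296, 401 and 439 CPM as lowest, median and highest value in cDC1. In cDC2 the values were 426, 438 and 511 CPM, and in pDC they were 68.8, 78.9 and 105 CPM. All 12 conventional columns lay above all 6 pDC columns. Ciita was 5.42-fold higher in cDC1 than in pDC, a log2 difference of 2.44 ± 0.10 (SE; edgeR adjusted p = 3.37e-14). In cDC2 it was 6.36-fold higher than in pDC, a log2 difference of 2.67 ± 0.10 (edgeR adjusted p = 8.48e-15). Between the conventional subsets the difference of -0.23 ± 0.098 (cDC1 minus cDC2) missed the threshold with edgeR at an adjusted p of 0.0564. It passed with DESeq2 (adjusted p = 0.0421), and over all alternatives the adjusted p ran from 0.0273 to 0.135. The CPM ranges of the conventional subsets overlapped, and after scaling by the edgeR composition factors they did not. Ciita overlaps Dexi on the opposite strand, and use of strand in the counting was not given in the sources used here.

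Cd74, on chromosome 18 from 60803848 to 60812652 on the plus strand (GRCm38), encodes the invariant chain. It had 42528, 50326 and 53561 CPM (lowest, median and highest) in cDC1, 47108, 53415 and 56043 CPM in cDC2, and 21882, 24688 and 27840 CPM in pDC. The conventional ranges overlapped and both lay above pDC. It was 2.31-fold higher in cDC1 than in pDC (edgeR log2 difference 1.21 ± 0.11, adjusted p = 4.80e-09) and 2.42-fold higher in cDC2 (edgeR log2 difference 1.28 ± 0.11, adjusted p = 2.14e-09). Between cDC1 and cDC2 the difference was -0.07 ± 0.11 (edgeR adjusted p = 0.643).

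The classical chains form the peptide-presenting molecule, with H2-Aa and H2-Ab1 as the alpha and beta chain of I-A and H2-Eb1 as the beta chain of I-E. The I-E alpha gene, H2-Ea, did not exceed 2.83 CPM in any column, and the values given here are of RNA only. H2-Ab1 had 23677, 28467 and 31299 CPM in cDC1 (lowest, median and highest), 26374, 28282 and 29374 CPM in cDC2, and 7165, 8271 and 10224 CPM in pDC. H2-Aa had 15087, 20539 and 21574 CPM in cDC1, 22417, 23405 and 24374 CPM in cDC2, and 6272, 7381 and 9063 CPM in pDC. All 3 genes were lower in every pDC column than in every conventional column, and the pDC gate did not use class II protein. H2-Eb1 had 11611, 14073 and 14518 CPM in cDC1, 15030, 15862 and 16456 CPM in cDC2, and 2288, 2506 and 3175 CPM in pDC. As a description, H2-Eb1 was 5.95-fold higher in cDC1 and 6.79-fold higher in cDC2 than in pDC, H2-Ab1 3.85-fold and 3.77-fold higher, and H2-Aa 3.01-fold and 3.53-fold higher. The H2-Eb1 mean thus differed from pDC by more than the H2-Aa mean in both conventional subsets.

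Between cDC1 and cDC2, none of the classical genes passed the edgeR test. The log2 differences, cDC1 minus cDC2, were -0.23 ± 0.13 for H2-Aa (adjusted p = 0.157), 0.03 ± 0.12 for H2-Ab1 (adjusted p = 0.856) and -0.19 ± 0.11 for H2-Eb1 (adjusted p = 0.171), by edgeR's quasi-likelihood test. The CPM ranges of H2-Aa and H2-Eb1 did not overlap between the conventional subsets, yet they overlapped once scaled by the composition factors. Members whose CPM ranges did not overlap between cDC1 and cDC2 numbered 5 of 10 (H2-Aa, H2-Eb1, H2-DMb1, H2-DMb2 and H2-Oa), beside 27.1% of all genes. With the composition factors they numbered 4 of 10 (Ciita, H2-DMb1, H2-DMb2 and H2-Oa), beside 29.0%. The 3 classical genes and Cd74 were all lowest among cDC1 in the same column, a172. Of the cDC1 columns, a172 also had the highest summed B cell (204 CPM), macrophage (509 CPM) and plasma cell (627 CPM) markers. Its summed cDC1 markers (7575 CPM) were the highest too, while those of T, NK and erythroid cells were highest in a160. Leaving out a172 moved the differences of H2-Aa and H2-Eb1 from -0.23 and -0.19 to -0.14 and -0.12, and that of Cd74 from -0.07 to 0.0038. The part of these markers in the levels was not tested.

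The balance of the 2 classical beta chain RNAs, which does not depend on library totals, differed between the conventional subsets. The ratio of H2-Eb1 to H2-Ab1 counts was 0.460, 0.484 and 0.499 in cDC1 (lowest, median and highest) and 0.548, 0.559 and 0.573 in cDC2. The ranges did not overlap. The log2 difference was -0.22, with a two-sided exact permutation p of 0.00216, the smallest that 6 columns against 6 allow, and 0.00298 after Benjamini-Hochberg adjustment over the 11 ratio tests. In pDC the ratio was 0.302, 0.308 and 0.324, below both conventional subsets, as a description. The ratio of Cd74 to H2-Ab1 was 1.68, 1.75 and 1.83 in cDC1 and 1.78, 1.88 and 1.93 in cDC2, ranges that overlapped. Its log2 difference was -0.09 (exact permutation p = 0.0152, adjusted 0.0167). In pDC it was 2.72, 2.96 and 3.05, so that pDC held more invariant chain RNA per H2-Ab1 RNA than either conventional subset in every column.

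H2-DM, the peptide editor, is a pair of an H2-DMa chain with an H2-DMb1 or H2-DMb2 chain. H2-DMa had 1052, 1117 and 1169 CPM in cDC1, 863, 967 and 1071 CPM in cDC2, and 800.3, 837 and 853 CPM in pDC. The conventional ranges overlapped at their edges, and both lay above pDC. It was 1.56-fold higher in cDC1 than in pDC (edgeR log2 difference 0.64 ± 0.075, adjusted p = 2.14e-07) and 1.34-fold higher in cDC2 (0.42 ± 0.074, edgeR adjusted p = 5.02e-05). Without a composition factor these log2 differences were 0.42 (edgeR adjusted p = 2.54e-06) and 0.21 (edgeR adjusted p = 0.00365), the smallest over all alternatives. It was 1.17-fold higher in cDC1 than in cDC2 (0.22 ± 0.074, edgeR adjusted p = 0.0178). Without the cDC2 column a158 this call was lost (0.16, edgeR adjusted p = 0.0698, within a range of 0.00592 to 0.0698 over all alternatives). H2-DMa overlaps Brd2 on the opposite strand, so reads of the 2 genes may have been mixed where strand was not used.

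The 2 H2-DMb genes went opposite ways in the conventional subsets. H2-DMb1 had 1210.1, 1411 and 1518 CPM in cDC1, 590.2, 705 and 841 CPM in cDC2, and 555, 640.4 and 709 CPM in pDC. H2-DMb2 had 337, 440.4 and 492 CPM in cDC1, 1391, 1516 and 1610.2 CPM in cDC2, and 227, 280.2 and 389 CPM in pDC. Every cDC1 column lay above every other column for H2-DMb1, and every cDC2 column above every other for H2-DMb2. H2-DMb1 was 1.97-fold higher in cDC1 than in cDC2 (edgeR log2 difference 0.97 ± 0.11, adjusted p = 5.30e-07). H2-DMb2 was 3.57-fold higher in cDC2 (edgeR log2 difference, cDC1 minus cDC2, -1.84 ± 0.11, adjusted p = 4.77e-11).

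In pDC both H2-DMb genes were lower than in either conventional subset by the edgeR test. H2-DMb2 was 6.0-fold lower than in cDC2 (edgeR log2 difference 2.58 ± 0.12, adjusted p = 8.28e-14) and 1.68-fold lower than in cDC1 (0.75 ± 0.11, edgeR adjusted p = 5.67e-06). H2-DMb1 was 2.55-fold lower than in cDC1 (1.35 ± 0.12, edgeR adjusted p = 2.06e-09) and 1.30-fold lower than in cDC2 (0.38 ± 0.11, edgeR adjusted p = 0.00661). The last call was lost without a composition factor (0.17, edgeR adjusted p = 0.141, the highest over all alternatives), and the CPM ranges of H2-DMb1 in cDC2 and pDC overlapped. Of the 7 members testable against pDC, the CPM ranges of 6, all but H2-DMb1, did not overlap between cDC2 and pDC, beside 51.5% of all genes. Between cDC1 and pDC 6 of the 7 did not overlap, all but H2-DMb2, beside 44.6%.

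As a share, H2-DMb1 made up 71.1%, 77.3% and 79.5% of the counts of both H2-DMb genes in cDC1 (lowest, median and highest), 29.1%, 31.7% and 34.4% in cDC2, and 62.6%, 68.3% and 74.0% in pDC. The shares of cDC2 lay below all those of cDC1 and pDC, while cDC1 and pDC overlapped. The log2 ratio of H2-DMb1 to H2-DMb2 was higher in cDC1 than in cDC2 by 2.83 (exact permutation p = 0.00216, adjusted 0.00298). It was higher in cDC1 than in pDC by 0.60 (exact permutation p = 0.00649, adjusted 0.00794), and cDC2 minus pDC was -2.24 (exact permutation p = 0.00216, adjusted 0.00298). The coding sequences of the 2 genes, 783 bases each, are 95.9% identical in GENCODE M21, and 37.6% of the 31-base words of H2-DMb1 also occur in H2-DMb2, and 29.7% in the other direction. The split between the 2 genes is uncertain, because how the authors' counting divided shared reads was not given in the sources used here. Counted as 1 gene, they were lower in cDC1 than in cDC2 by a log2 difference of -0.29 ± 0.090 (edgeR adjusted p = 0.0123). The sum was higher than in pDC by 1.19 ± 0.092 in cDC1 (edgeR adjusted p = 4.14e-10) and 1.47 ± 0.092 in cDC2 (edgeR adjusted p = 1.48e-11).

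H2-DO, the inhibitor of H2-DM, is a pair of H2-Oa and H2-Ob chains. H2-Oa had 363, 423 and 442 CPM in cDC1, 695, 859.9 and 935 CPM in cDC2, and 190.4, 236 and 249.98 CPM in pDC. The 3 ranges did not overlap. It was 2.06-fold higher in cDC2 than in cDC1 (edgeR log2 difference, cDC1 minus cDC2, -1.04 ± 0.084, adjusted p = 2.35e-09). Against pDC it was 2.13-fold higher in cDC1 (1.09 ± 0.084, edgeR adjusted p = 4.09e-10) and 4.40-fold higher in cDC2 (2.14 ± 0.087, edgeR adjusted p = 1.51e-14). The macrophage and monocyte markers were also higher in cDC2 than in cDC1, as given above, whereas the summed B cell markers overlapped, and the part of either in the H2-Oa level was not tested.

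H2-Ob, the beta chain, did not show this difference between the conventional subsets. It had 295, 329.9 and 422 CPM in cDC1, 224, 328 and 406 CPM in cDC2, and 20.3, 25.6 and 37.6 CPM in pDC. The conventional ranges overlapped widely and every pDC column lay below them. The difference of cDC1 and cDC2 was 0.07 ± 0.14 (edgeR adjusted p = 0.720). H2-Ob was 14.5-fold higher in cDC1 than in pDC (edgeR log2 difference 3.86 ± 0.15, adjusted p = 1.08e-14) and 13.9-fold higher in cDC2 (edgeR log2 difference 3.80 ± 0.15, adjusted p = 1.28e-14). No other tested member differed as much from pDC by its log2 difference. Per length of the longest coding transcript, rescaled as CPM, the median level of H2-Oa was 649 in cDC1, 1353 in cDC2 and 399 in pDC, and that of H2-Ob was 204 in cDC1, 204 in cDC2 and 17.7 in pDC. H2-Ob was thus the lower of the pair in each cell type on this scale.

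The inhibitor was compared with its target chain by chain. The ratio of H2-Oa to H2-DMa counts was 0.337, 0.372 and 0.402 in cDC1, 0.695, 0.923 and 1.01 in cDC2, and 0.223, 0.283 and 0.296 in pDC. All 3 ranges were apart, in the order cDC2, cDC1, pDC. The log2 differences were -1.27 for cDC1 minus cDC2, 0.45 for cDC1 minus pDC and 1.72 for cDC2 minus pDC (exact permutation p = 0.00216 and adjusted p = 0.00298 for each). For the beta chains, the ratio of H2-Ob to H2-DMb1 plus H2-DMb2 was 0.163, 0.183 and 0.214 in cDC1, 0.0929, 0.151 and 0.201 in cDC2, and 0.0244, 0.0283 and 0.0362 in pDC. The conventional subsets overlapped, and their log2 difference of 0.37 did not pass the test (exact permutation p = 0.119, adjusted 0.119). It was 0.24 without the cDC2 column a167 and 0.46 without a158, where it passed. Both conventional subsets lay above pDC, by 2.70 in cDC1 and 2.33 in cDC2 (exact permutation p = 0.00216 and adjusted p = 0.00298 for each). In pDC the H2-Ob transcript was therefore scarcer relative to H2-DM than in either conventional subset, and H2-Oa was too.

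**Figure D3:**
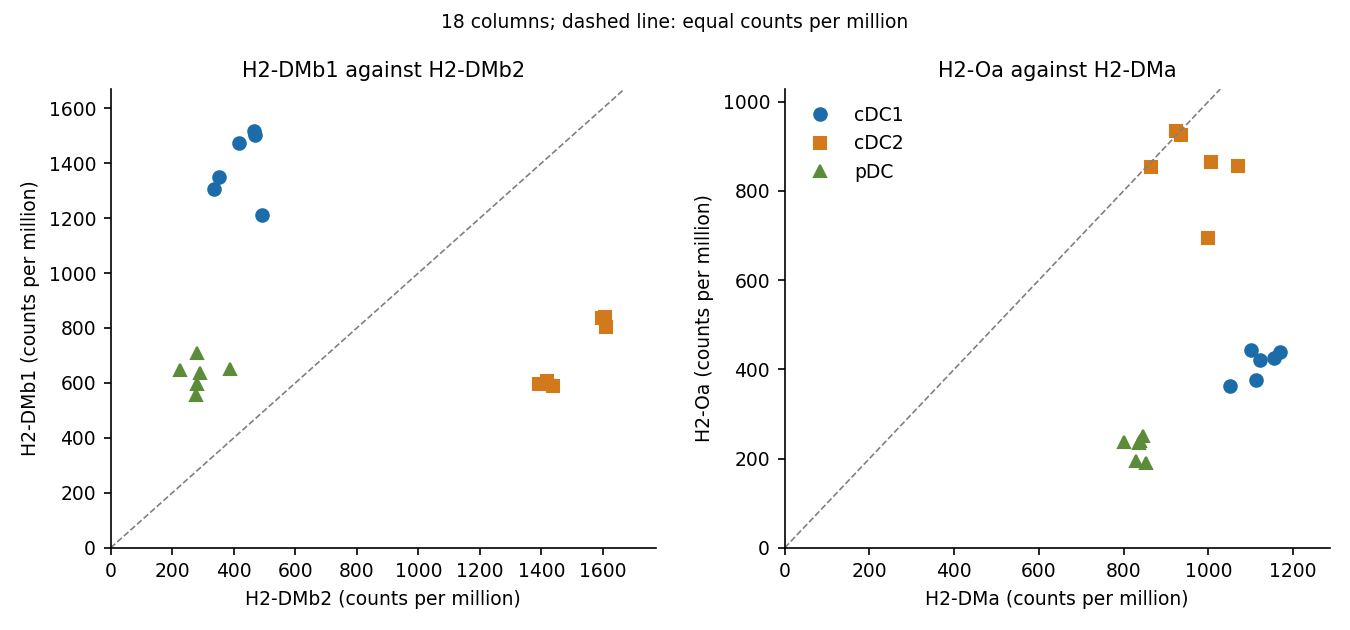
CPM of H2-DMb1 against H2-DMb2 (left) and of H2-Oa against H2-DMa (right), 1 point per column for cDC1 (circles), cDC2 (squares) and pDC (triangles), with a dashed line at equal values. All cDC2 points lie below the line on the left and all others above it. On the right the cDC2 points lie near the line (ratios of 0.695 to 1.01) and the cDC1 and pDC points lie below it.

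Genes around the pathway were followed by list. Of the 7 subunits of the complex on which CIITA docks (Rfx5, Rfxank, Rfxap, Creb1, Nfya, Nfyb and Nfyc), 1 was higher in cDC1, 3 were higher in cDC2 and 3 were not called between those subsets, beside 24.8% and 25.7% of all genes called higher in each. Against pDC, 3 were higher and 3 lower in cDC1, and 3 were higher and 2 lower in cDC2. Of all genes, 34.3% were called higher in cDC1 and 32.1% in pDC in the former comparison, and 32.2% higher in cDC2 and 32.0% in pDC in the latter. All log2 differences of the 7 were smaller than 1 in size. Rfx5, the DNA-binding RFX subunit, had 8.26, 13.2 and 17.4 CPM in cDC1, 18.2, 22.2 and 24.9 CPM in cDC2, and 11.9, 13.6 and 14.8 CPM in pDC (lowest, median and highest). It was higher in cDC2 than in cDC1 (edgeR log2 difference, cDC1 minus cDC2, -0.79 ± 0.13, adjusted p = 2.62e-05) and than in pDC (0.91 ± 0.13, edgeR adjusted p = 2.50e-06). Between cDC1 and pDC, whose ranges overlapped, Rfx5 differed by 0.12 ± 0.13 (edgeR adjusted p = 0.412), and it was the only one of the 7 not called there. Rfxank, a further RFX subunit, was higher in pDC than in cDC1, with medians of 32.1 and 13.9 CPM (edgeR log2 difference, cDC1 minus pDC, -0.99 ± 0.083, adjusted p = 1.40e-09). Rfxap, another RFX subunit, went the other way, with a median of 43.5 CPM in cDC1 and 28.0 in cDC2 (edgeR log2 difference 0.69 ± 0.062, adjusted p = 1.08e-08).

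Of the 9 listed regulators of Ciita, 3 were higher in cDC1 and 6 in cDC2 between the conventional subsets, beside 50.5% of all genes called in either direction. In cDC1 against pDC, 3 were higher in cDC1 and 6 in pDC, beside 66.4% of all genes called. In cDC2 against pDC, 4 were higher in cDC2 and 3 in pDC, beside 64.1% of all genes called. Spi1 encodes PU.1, a myeloid factor known to act at the Ciita promoter used by conventional dendritic cells, and had a median of 513 CPM in cDC1, 763 in cDC2 and 83.7 in pDC. It was higher than in pDC by 2.84 ± 0.072 in cDC1 (edgeR adjusted p = 1.44e-17) and 3.42 ± 0.073 in cDC2 (edgeR adjusted p = 2.19e-18). Irf8, which partners PU.1, did not follow the level of Ciita, with medians of 1664, 47.5 and 4449 CPM in cDC1, cDC2 and pDC. Irf8 was higher in cDC1 than in cDC2 by 5.11 ± 0.19 (edgeR adjusted p = 2.45e-14).

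Zfp366, which encodes DC-SCRIPT, a zinc finger protein of conventional dendritic cells, had 64.9 to 122 CPM in cDC1, 43.1 to 53.8 CPM in cDC2 and at most 0.33 CPM in pDC. Its log2 difference from pDC was 8.68 ± 0.20 in cDC1 (edgeR adjusted p = 5.63e-18). Tcf4, the E protein that defines pDC, had medians of 51.4, 58.5 and 1249 CPM in cDC1, cDC2 and pDC. Prdm1, which encodes the repressor Blimp-1, was low, with medians of 1.28, 9.43 and 3.44 CPM.

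Of 8 listed genes for the processing of the invariant chain and antigen, 7 were found (Ifi30 was not), namely 6 proteases (Ctss, Ctsl, Ctsb, Ctsd, Lgmn and Sppl2a) and the protease inhibitor Cst3. Of the 6 proteases, 1 was higher in cDC1 and 4 in cDC2 between the conventional subsets, beside 24.8% and 25.7% of all genes. In cDC1 against pDC 1 was higher in cDC1 and 4 in pDC, beside 34.3% and 32.1% of all genes, and in cDC2 against pDC 3 were higher in cDC2 and 3 in pDC, beside 32.2% and 32.0%. Ctss encodes cathepsin S, the protease that makes the last cut of the invariant chain in many antigen-presenting cells, and had 1216, 1274 and 1361 CPM in cDC1, 2144, 2591 and 3046 CPM in cDC2, and 1980, 2076 and 2130 CPM in pDC. The 3 ranges did not overlap. Ctss was higher in cDC2 than in cDC1 (edgeR log2 difference, cDC1 minus cDC2, -1.01 ± 0.10, adjusted p = 8.41e-08) and higher in pDC than in cDC1 (cDC1 minus pDC, -0.48 ± 0.10, edgeR adjusted p = 3.40e-04). Cst3, which encodes the cathepsin inhibitor cystatin C, went the opposite way, with medians of 26015 CPM in cDC1, 1517 in cDC2 and 1425 in pDC. Cst3 was higher in cDC1 than in cDC2 by 4.07 ± 0.15 (edgeR adjusted p = 2.70e-14).

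Cathepsin L, another protease able to cut the invariant chain, was a pDC transcript here. Ctsl had medians of 16.1 CPM in cDC1, 25.0 in cDC2 and 2724 in pDC, and cDC1 minus pDC was -7.18 ± 0.24 (edgeR adjusted p = 9.78e-16). Ctsb and Ctsd, which encode further endosomal proteases, were also higher in pDC than in either conventional subset, with pDC medians of 6127 and 302 CPM. Ctsl, Ctsb and Ctsd were thus higher in the cell type in which the members were lower. The members were not all low there, since by mean CPM Cd74 ranked 1, H2-Ab1 9 and H2-Aa 10 in pDC. The other listed proteases, Ctss, Lgmn and Sppl2a, were higher in cDC2 than in pDC. Between cDC1 and pDC, Sppl2a was higher in cDC1, Ctss was higher in pDC and Lgmn was not called.

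Of the genes of surface turnover, 3 symbols of the 5 listed were found, the other 2 being older symbols of the same genes. All 3 (Marchf1, Cd83 and Marchf8) were higher in cDC1 than in pDC and in cDC2 than in pDC, and 1, Marchf1, was higher in cDC1 than in cDC2. Over all genes these shares were 34.3%, 32.2% and 24.8%. Marchf8 was very low, with medians of 1.66, 1.47 and 0.89 CPM in cDC1, cDC2 and pDC (cDC2 against pDC, edgeR adjusted p = 0.0156). Marchf1 encodes the ubiquitin ligase that sends class II to degradation, and had medians of 154, 125 and 53.8 CPM in cDC1, cDC2 and pDC. Cd83, which counteracts MARCH1, had medians of 2948, 3068 and 39.9 CPM, with log2 differences from pDC of 6.34 ± 0.27 in cDC1 (edgeR adjusted p = 3.92e-14) and 6.53 ± 0.27 in cDC2 (edgeR adjusted p = 2.55e-14). The ligase and its antagonist were both lower in pDC than in the conventional subsets.

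Of 4 further class II genes, H2-Ea and H2-Eb2 were found. H2-Eb2, a second I-E beta gene, had 11.5, 17.5 and 23.2 CPM in cDC1, 69.5, 83.1 and 91.7 CPM in cDC2, and 1.37, 2.10 and 3.43 CPM in pDC. All 3 ranges were apart. H2-Eb2 was higher in cDC2 than in cDC1 (edgeR log2 difference, cDC1 minus cDC2, -2.23 ± 0.18, adjusted p = 3.14e-09) and higher in cDC2 than in pDC by 5.41 ± 0.22 (edgeR adjusted p = 1.62e-14). H2-Ea, the I-E alpha gene, did not exceed 2.83 CPM in any column.

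**Figure D4:**
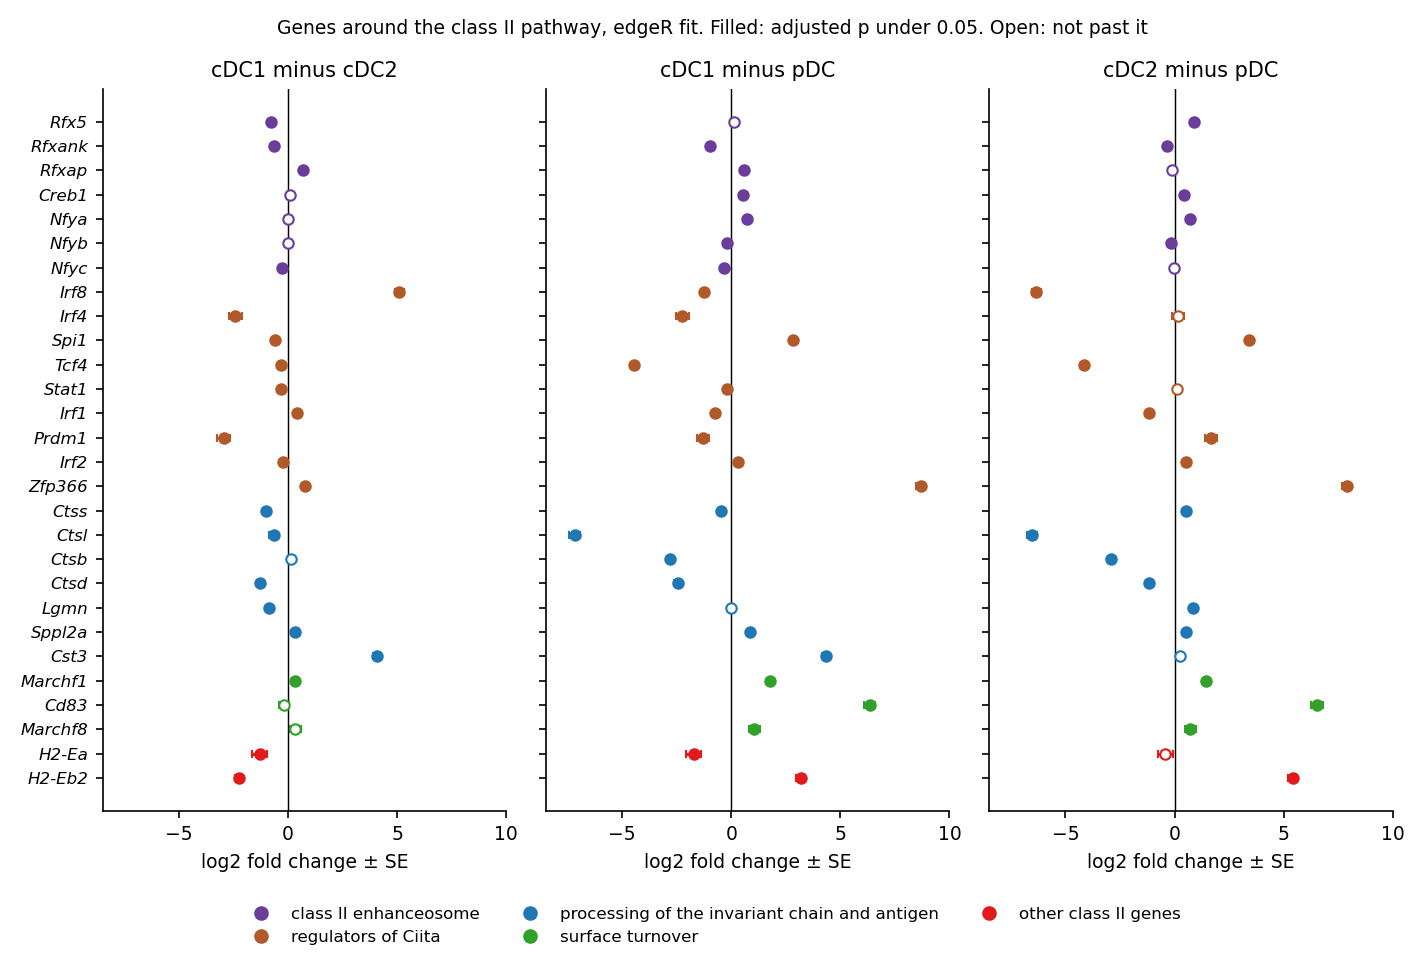
Log2 fold change with its standard error for the 28 tested genes of the pathway lists in the 3 comparisons, coloured by list, filled where the adjusted p was under 0.05. The subunits on which CIITA docks lie between -0.99 (Rfxank, cDC1 minus pDC) and 0.91 (Rfx5, cDC2 minus pDC). Irf8, Zfp366, Ctsl, Cst3 and Cd83 lie far from 0 in at least 1 comparison.

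The members did not follow one pattern over the 18 columns. As a description, with points that share cell type and library depth, Pearson's r of log2(CPM + 1) with Ciita was 0.987 for H2-Ob, 0.986 for H2-Eb1 and 0.978 for H2-Ab1, but 0.745 for H2-DMa, 0.728 for H2-DMb2 and 0.499 for H2-DMb1. The genes outside the list most like Ciita by this measure were Dna2 (0.992), Tlr13 (0.991) and Adam23 (0.990). For H2-Ab1 they were Hfe, Bcl2a1a and Batf3, with r of 0.985, 0.985 and 0.984. For H2-Oa they were Limd2, Ppp1r14a and Ube2e2, with r of 0.991, 0.991 and 0.987. Limd2 had a mean of 333 CPM in cDC1, 1229 in cDC2 and 119 in pDC.

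Within a cell type, the coefficient of variation of the members was set beside the median over all genes of at least 50 CPM, which was 13.8% in cDC1, 9.54% in cDC2 and 8.35% in pDC. H2-Aa, H2-Ab1 and H2-Eb1 varied by 3.20%, 3.92% and 3.91% in cDC2, but by 16.2%, 14.0% and 14.4% in pDC. In cDC2 the most variable members were H2-Ob at 21.4% and H2-DMb1 at 17.7%. H2-DMa varied by 3.74% in cDC1 and 2.22% in pDC. In pDC 1 column, a168, was lowest for 7 of the 10 members and another, a164, was highest for 6.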

How the data were processed

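The authors deposited raw and normalized tables for each cell type. Per the submitters' processing notes, kallisto, DESeq2 and GRCm38 were used, without roles or versions. The deposited raw values are whole-number counts per gene, summed row totals being at least 10, and 0 rows name no gene. Whether they are rounded estimates was not given in the sources used here. The 3 normalized tables, scaled separately, were not used. Libraries were made with a SMARTER mRNA-seq kit, per the labels' protocols.

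Each of the 18 columns was assigned to the cell type in its table's name, and at least 99.8% of a column's total lay in the shared genes. CPM was computed over shared-gene totals. edgeR 4.0.16 (R 4.3.3) fitted 1 model to all columns, grouped by cell type, with TMM composition factors, filterByExpr, the quasi-likelihood test and Benjamini-Hochberg adjustment over 13539 genes. Its fold changes use TMM-scaled counts and can differ from ratios of CPM. Ratios were tested by two-sided exact permutation over columns. Per-length levels used GENCODE M21 (a length for 95.8% of genes tested). Motifs were searched in RefSeq windows with Biopython 1.88. The scripts were tested on simulated data.

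Named genes are the 10 members and the pathway lists, all given in full. Members and lists were chosen with earlier results of these data known. Alternatives were RLE factors, no composition factor, each table's own totals, no filter, DESeq2 1.42.0, limma-voom 3.58.1, fits of 2 cell types, leaving out each column, and per-length ratios. Adding the 2 H2-DMb genes together was chosen after seeing the data. At these depths the spread between columns, not counting error, limits the precision of the members' values.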

Additional observations from a re-analysis of the deposited data

Results flagged for a closer look

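In each cell type the highest or lowest of the 6 columns was compared with its nearest neighbour, over 45 sets of values, of which chance alone would single out about 1 in 20. In 2 sets the gap, as a share of the whole range, exceeded Dixon's critical value at the 95% level. Ciita in cDC2 had 1 column, a161, at 511 CPM, with the next at 447 and the lowest at 426. H2-Oa in cDC2 had 1 column, a167, at 695 CPM, with the next at 852 and the highest at 935.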

How the results depend on the processing

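Of 18 called differences of members, 16 kept direction and call under all 18 omissions of a column and 7 other settings of scaling, filter, tool or samples. H2-DMa between cDC1 and cDC2 lost its call without column a158 (0.16, edgeR adjusted p = 0.0698). H2-DMb1 between cDC2 and pDC lost it without a composition factor (0.17, edgeR adjusted p = 0.141). When it was counted together with H2-DMb2, a setting chosen after seeing the data, the difference between cDC1 and cDC2 had the opposite sign (-0.29), since that sum contains H2-DMb2. Without a composition factor the H2-DMa differences from pDC fell to 0.42 in cDC1 and 0.21 in cDC2, and the median of all genes moved to -0.17 in cDC1 minus pDC and -0.20 in cDC2 minus pDC. H2-Aa and H2-Eb1 between cDC1 and cDC2 passed there (-0.25 and -0.21, edgeR adjusted p = 0.0366 and 0.0410). Ciita between cDC1 and cDC2 passed with DESeq2, with limma-voom (adjusted p = 0.0489), with only these subsets fitted (edgeR adjusted p = 0.0282) and in 5 omissions. Uncalled differences between cDC1 and cDC2 changed sign when a column was left out, with ranges of -0.13 to 0.0038 for Cd74, -0.02 to 0.10 for H2-Ab1 and -0.017 to 0.12 for H2-Ob, and H2-Ab1 was at -0.0080, -0.012 and -0.021 without a166, a169 and a158. The log2 ratio of H2-Ob to H2-DMb1 plus H2-DMb2 between cDC1 and cDC2 ran from 0.24 to 0.46 over the omissions and passed without a158 (exact permutation, adjusted p = 0.0498), and the other 10 of 11 ratio differences kept their call throughout. Counts of genes called stayed within 6416 to 7003 (cDC1 against cDC2), 8660 to 9097 (cDC1 against pDC) and 8435 to 8976 (cDC2 against pDC). The causes of these changes were not tested, save where stated. No paired analysis was possible because no column has a replicate number.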

Other observations

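Selected members are given here by column within a cell type, in ascending order and with no assignment of columns to genotypes. They were not picked by spread alone. In every set shown, the 3 columns with the lower code numbers lay all above or all below the other 3. What the codes stand for is not known from the labels. Other sets that divide in this way are left out, among them Cd74, H2-Ab1 and H2-Eb1 in pDC and H2-DMa and H2-DMb2 in cDC2. The sets shown are therefore an incomplete selection. H2-DMb1 in pDC had a coefficient of variation of 8.31%. H2-Ob (21.5%) and H2-DMb2 (18.4%) in pDC, which do not divide in this way, are not shown. H2-DMb1 in cDC2 had 590.2, 597, 606, 804, 835 and 841 CPM, with 3 columns near 600 and 3 above 800. H2-Ob in cDC2 had 224, 290.2, 293, 364, 388 and 406 CPM. H2-Aa in pDC had 6272, 6586, 6856, 7907, 9046 and 9063 CPM. Ciita in pDC had 68.8, 70.6, 77.8, 80.1, 84.9 and 105 CPM, and H2-DMb1 in pDC had 555, 596, 635, 646, 652 and 709 CPM, without such a step. Nothing was tested over these values.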
